A study of Mus musculus with 19 samples.

Results

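miR-128 is a brain-enriched microRNA (miRNA) made from a pair of precursor genes, and 3 of the 1148 miRNA rows counted in each library belonged to it. The members were all rows whose names begin with miR-128-, namely miR-128-3p, miR-128-1-5p and miR-128-2-5p, and all 3 had enough reads to be tested. miR-128 was chosen by the measured level of miR-128-3p in this series, which had been called lower in aged animals given SAHA than in aged animals given vehicle. Every SAHA value of the members below is therefore a description without a test.

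Small RNA was sequenced from the CA1 subregion of the hippocampus of mice of the strain labelled C57B/6JRj, genotype WT, in 19 libraries. The young vehicle group held 8 libraries from animals aged 3 months, the aged vehicle group 5 libraries from animals aged 20 months, and the aged SAHA group 6 libraries from animals aged 20 months. All groups, the SAHA group included, received cyclodextrin at 18 g per L of drinking water, and the SAHA group also received SAHA (vorinostat, a histone deacetylase inhibitor) at 0.67 g per L. Treatment of the aged groups lasted 4 weeks. The labels give no duration for the young group. Neither sex nor sequencing batch is given, and nothing states whether each library came from 1 animal or from a pool, so p-values measure the spread between these libraries only. The tissue was dissected and not sorted into cells, so a lower level can reflect fewer cells of a type or less of the miRNA per cell, and these cannot be told apart. Of the 28 rows of other neuron-enriched miRNAs (such as miR-124, miR-9 and miR-132), none was at 0 in all libraries, but markers of glia, vessels, blood and choroid plexus were also present. The values thus describe miR-128 in CA1 tissue, and no level in neurons alone was measured.

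A miRNA precursor folds into a hairpin that is cut by Drosha and Dicer into a short duplex, with 1 strand from the 5p arm and 1 from the 3p arm of the hairpin. One strand is usually kept in Argonaute and pairs through its seed, bases 2 to 8, with messenger RNAs that are then repressed, while the other strand is mostly degraded. miR-128-3p is the kept strand of miR-128, is abundant in forebrain neurons, and is known for limiting neuronal excitability.

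The mature sequences, from RefSeq for GRCm38.p6 and written 5′ to 3′ with the seed in capitals, show which reads can be assigned to a precursor gene and which cannot.
miR-128-3p: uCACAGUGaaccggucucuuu
miR-128-1-5p: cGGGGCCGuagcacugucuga
miR-128-2-5p: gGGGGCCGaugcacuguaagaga
The 3p sequence of 21 bases was the same in both precursors, so its reads carry no record of the gene they came from. The 5p products, of 21 and 23 bases, had the same seed but differed at 5 of the 21 positions compared, counted from 1 at the 5′ end of miR-128-1-5p with its base given first: C1G, U9A, A10U, C18A and U19A. The 5p rows are therefore the only readout of the separate genes in these data. Among the 891 counted names that matched a RefSeq mature sequence, no other had the seed of miR-128-3p or of the 5p products.

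The precursors, with the 5p and 3p products in capitals, show where these sequences lie.
Mir128-1: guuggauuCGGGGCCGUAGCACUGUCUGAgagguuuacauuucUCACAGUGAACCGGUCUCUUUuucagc
Mir128-2: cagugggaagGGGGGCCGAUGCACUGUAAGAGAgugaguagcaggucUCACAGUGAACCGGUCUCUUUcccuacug
Mir128-1 lay at chr1:128202361-128202430 (GRCm38.p6) on the plus strand, in an intron of R3hdm1, which spans chr1:128103301-128237736 on the same strand. Mir128-2 lay at chr9:112118636-112118711 on the minus strand, in an intron of Arpp21 (chr9:112065091-112235938, the same strand), a gene for a phosphoprotein of striatal and other forebrain neurons. No other precursor of the RefSeq table lay within 1000000 bases of either.

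The 3 members differed in level by orders of magnitude in every library. Levels are given as counts per 1000000 miRNA counts (CPM) after scaling between libraries, with 1 read standing for 1 whole mature miRNA of 21 to 23 bases, and ligation during library preparation can favour some sequences over others. miR-128-3p averaged 31830.1 ± 5378.6 CPM (SD, n = 19), or 3.18% ± 0.527 of all miRNA counts, and was the 8th most abundant miRNA. miR-128-1-5p averaged 310.6 ± 33.0 CPM (SD, n = 19) and ranked 141, and miR-128-2-5p averaged 16.04 ± 3.10 CPM (SD, n = 19) and ranked 353. In reads, these levels rested on 100066 to 245098 counts per library for miR-128-3p, 964 to 2141 for miR-128-1-5p and 37 to 122 for miR-128-2-5p. Only the last is limited by counting error: its lowest count of 37 has an exact Poisson 95% interval of 26.1 to 51.0, which covers counting error only, since reads had no molecular identifiers.

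miR-128-3p was at a like level in young and aged vehicle animals. In young vehicle animals it ranged from 27157.3 to 39032.2 CPM with a median of 35539.0 and a mean of 34920.5 ± 3679.2 (SD, n = 8). In aged vehicle replicates 1 to 5 it was at 34680.6, 29474.7, 34905.2, 38439.3 and 35243.3 CPM, a mean of 34548.6 ± 3221.4 (SD, n = 5). The groups overlapped over nearly their whole range, and 1 library in each, young vehicle 6 and aged vehicle 2, was low beside the others of its group. The log2 fold change with age was -0.015 ± 0.080 (SE; 95% interval -0.181 to 0.15), with an adjusted p of 0.957 in edgeR's quasi-likelihood test. The aged vehicle libraries in this comparison are those that also entered the SAHA contrast by which miR-128 was chosen.

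The 5p products did not pass the test with age either. miR-128-1-5p, the 5p strand of the chromosome 1 precursor, ranged from 270.7 to 405.1 CPM in young vehicle animals with a median of 307.0 (mean 314.9 ± 44.5, SD, n = 8). In aged vehicle replicates 1 to 5 it was at 335.0, 310.4, 317.3, 299.3 and 310.9 CPM (mean 314.6 ± 13.1, SD, n = 5), all within the young range. Its highest value, 405.1 CPM, came from young vehicle 6, the young library with the lowest miR-128-3p. miR-128-2-5p, the 5p strand of the chromosome 9 precursor, ranged from 10.94 to 20.34 CPM in young vehicle animals with a median of 18.69 (mean 17.37 ± 3.24, SD, n = 8). In aged vehicle replicates 1 to 5 it was at 19.55, 15.58, 18.25, 13.29 and 17.86 CPM (mean 16.91 ± 2.48, SD, n = 5), again within the young range. The log2 fold changes with age were -0.001 ± 0.088 (SE) for miR-128-1-5p and -0.049 ± 0.136 for miR-128-2-5p, with adjusted p of 0.996 and 0.892 in edgeR. The 95% intervals, -0.18 to 0.18 and -0.33 to 0.23, leave room for changes of that size. None of the 3 members passed with age in edgeR, in DESeq2 or in limma-voom, and none had an unadjusted p under 0.05 in edgeR, where 0.196% of the 509 tested miRNAs were called higher and 1.96% lower.

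**Figure D1:**
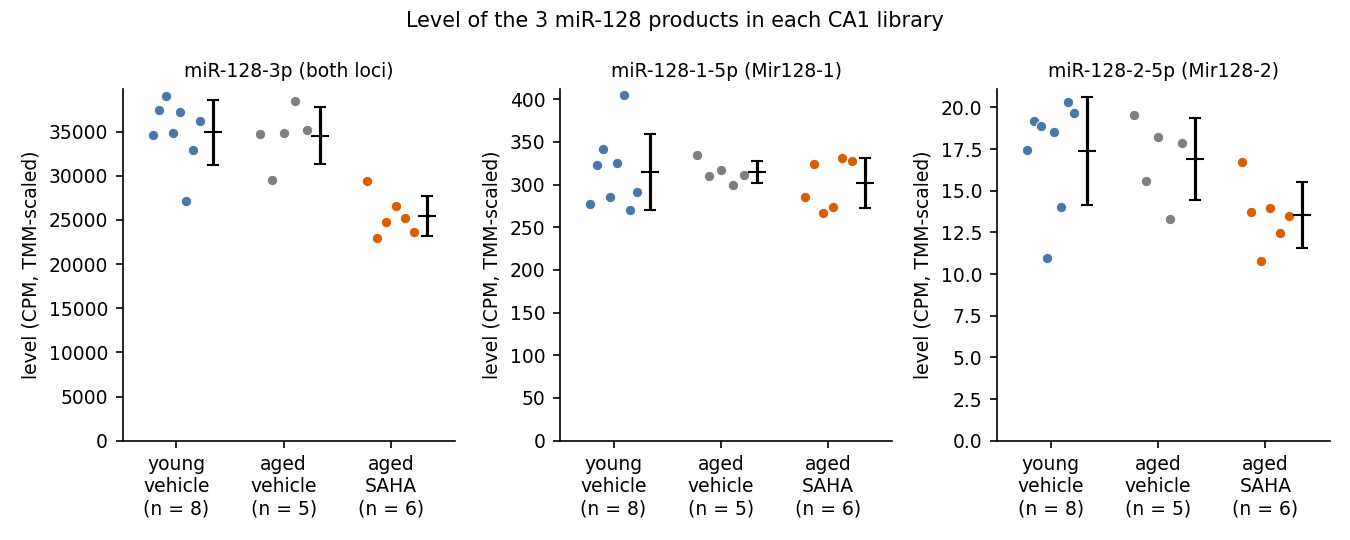
Level of each miR-128 product in every library (CPM after scaling between libraries, vertical axes starting at 0), by group, with 1 point per library and the group mean ± SD beside the points. The 6 aged SAHA libraries lie between 22991.0 and 29375.0 CPM for miR-128-3p, below all 5 aged vehicle libraries, whereas the groups overlap for miR-128-1-5p.

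In aged animals given SAHA, miR-128-3p was the member with the largest difference from aged vehicle, which is the difference it was selected on. In aged SAHA replicates 1 to 6 it was at 29375.0, 22991.0, 24769.8, 26607.2, 25241.6 and 23680.3 CPM, a median of 25005.7 and a mean of 25444.2 ± 2299.1 (SD, n = 6). All 6 libraries lay below all 5 aged vehicle libraries, although aged SAHA 1 was close to aged vehicle 2. As a share of all miRNA counts it was 2.58% ± 0.236 in aged SAHA animals (SD, n = 6), 3.49% ± 0.336 in aged vehicle animals (SD, n = 5) and 3.44% ± 0.397 in young vehicle animals (SD, n = 8). Its rank by abundance was 9 to 11 in aged SAHA libraries, 6 to 10 in aged vehicle libraries and 6 to 9 in young vehicle libraries. The log2 fold change was -0.441 ± 0.085 (SE; 95% interval -0.616 to -0.266), or -26.4%. This interval, and those of the 5p products with SAHA below, take no account of the selection and are not read as tests.

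miR-128-1-5p did not separate the aged groups. In aged SAHA replicates 1 to 6 it was at 285.8, 323.6, 266.4, 274.1, 331.3 and 328.0 CPM (mean 301.5 ± 29.3, SD, n = 6). Of these, 3 lay below the aged vehicle range of 299.3 to 335.0 CPM and 3 within it. The log2 fold change was -0.061 ± 0.094 (SE; 95% interval -0.26 to 0.13).

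miR-128-2-5p was lower on average with SAHA, with overlap. In aged SAHA replicates 1 to 6 it was at 16.75, 13.75, 10.79, 13.96, 12.46 and 13.49 CPM (mean 13.54 ± 1.96, SD, n = 6). All 6 lay below the aged vehicle median of 17.86 CPM, and 2 lay below every aged vehicle library. The log2 fold change was -0.323 ± 0.147 (SE; 95% interval -0.63 to -0.02), or -20.1%. Of all tested miRNAs, 1.18% were called higher and 3.14% lower with SAHA by edgeR, and nothing is read from the members' place among them, since this contrast chose them. At the edge of that call, miR-1193-3p, just inside, had a log2 fold change of -0.76 ± 0.21 (SE), and miR-339-5p, just outside, 0.31 ± 0.09. The level of miR-1193-3p was low, with group means from 3.06 to 5.19 CPM.

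Against young vehicle animals the SAHA libraries gave a similar picture, which shares the SAHA libraries with the contrast above and the young libraries with the age comparison. For miR-128-3p, 5 of 6 aged SAHA libraries lay below all 8 young libraries, and aged SAHA 1 at 29375.0 CPM was above young vehicle 6 at 27157.3. The log2 fold changes were -0.457 ± 0.076 (SE) for miR-128-3p, -0.063 ± 0.084 for miR-128-1-5p and -0.372 ± 0.131 for miR-128-2-5p. Of all tested miRNAs, 5.30% were called higher and 8.64% lower in this contrast, and no call is made here for the members. Without young vehicle 6 the young mean of miR-128-3p was 36029.5 ± 2076.8 CPM (SD, n = 7), and without aged SAHA 1 the SAHA mean was 24658.0 ± 1404.2 (SD, n = 5). These were the only libraries of the groups that overlapped, so separation of the rest follows from leaving them out and shows nothing further.

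**Figure D2:**
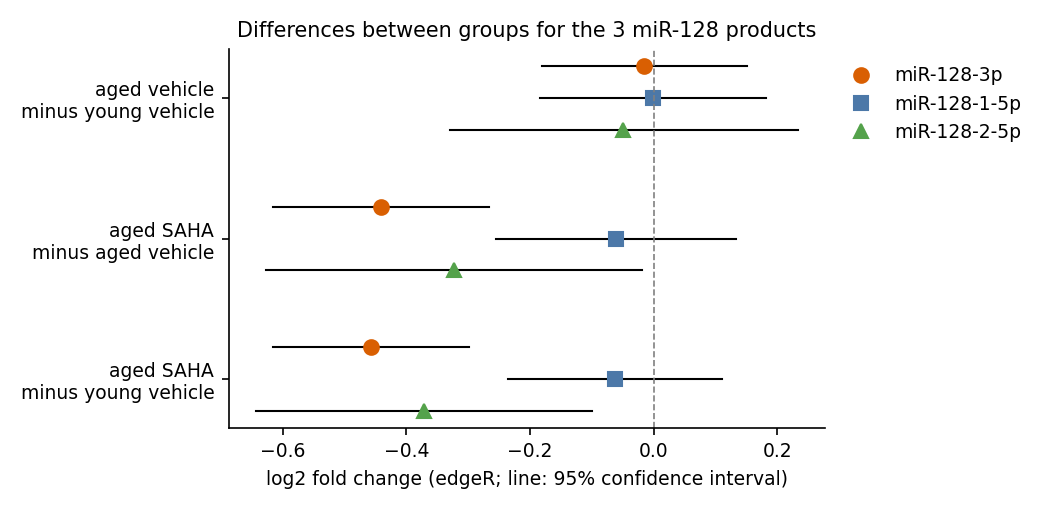
Log2 fold change of each miR-128 product in the comparisons of aged with young vehicle, aged SAHA with aged vehicle and aged SAHA with young vehicle, with 95% intervals from the edgeR fit and a line at 0. The age intervals of all 3 products span 0, and the SAHA values, which are given without a test, are lowest for miR-128-3p at -0.441 and -0.457. The intervals of the SAHA comparisons take no account of the selection of miR-128-3p and are not read as tests.

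Ratios within a library do not depend on the scaling between libraries, and they set the arms and the precursor genes of miR-128 against each other. In every library the 3p arm made up almost all miR-128 counts. How reads that fit both precursors were counted is not stated, and the level and rank of miR-128-3p and its size relative to the 5p products can depend on it. Counts of miR-128-3p per count of both 5p products together ranged from 64.79 to 117.7 in young vehicle libraries (mean 106.9 ± 17.5, SD, n = 8). They were 97.83, 90.43, 104.0, 123.0 and 107.2 in aged vehicle replicates 1 to 5 (mean 104.5 ± 12.2, SD, n = 5). The lowest young value came from young vehicle 6, and the other 7 young libraries lay between 108.1 and 117.7. With age the mean log2 ratio differed by -0.019 (exact two-sided permutation test, p = 0.937, adjusted over 3 ratio tests 0.937, smallest p the design allows 0.000777). Without young vehicle 6 the difference was -0.119 (adjusted p = 0.159 by the same exact test), and without aged vehicle 2 it was 0.031.

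In aged SAHA replicates 1 to 6 the 3p to 5p ratio was 97.09, 68.16, 89.35, 92.36, 73.42 and 69.35 (mean 81.6 ± 12.8, SD, n = 6). Of these, 4 lay below every aged vehicle library, and aged SAHA 1 and 4 lay within the aged vehicle range. The difference in mean log2 ratio was -0.363 against aged vehicle and -0.382 against young vehicle, given without a test because the ratio contains miR-128-3p.

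The pair of 5p products, the readout of the separate genes, kept a similar order in all libraries, with more counts from Mir128-1. Their ratio need not equal that of the output of the genes. The 5p strand is mostly degraded, the 5p products differ in sequence and length, and ligation can favour some sequences. Counts of miR-128-1-5p per count of miR-128-2-5p ranged from 13.31 to 28.91 in young vehicle libraries with a median of 17.18 (mean 18.93 ± 5.54, SD, n = 8). They were 17.13, 19.92, 17.39, 22.52 and 17.41 in aged vehicle replicates 1 to 5 (mean 18.87 ± 2.33, SD, n = 5). Young libraries spread the most, with young vehicle 4 and 6 above all aged vehicle libraries. The difference with age in mean log2 ratio was 0.035 (exact two-sided permutation test, p = 0.852, adjusted 0.937), and it ranged from -0.03 without young vehicle 7 or aged vehicle 4 to 0.13 without young vehicle 6. In aged SAHA replicates 1 to 6 the ratio was 17.06, 23.53, 24.68, 19.64, 26.58 and 24.32 (mean 22.63 ± 3.56, SD, n = 6). There, 4 of 6 libraries lay above every aged vehicle library, within the young range, and the mean log2 ratio was 0.254 higher than in aged vehicle. The share of Mir128-1 in all 5p counts was 94.69% ± 1.24 in young vehicle (SD, n = 8), 94.92% ± 0.552 in aged vehicle (SD, n = 5) and 95.68% ± 0.724 in aged SAHA libraries (SD, n = 6).

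The 3p arm set against each 5p product on its own gave unlike values. miR-128-3p had 85.38 counts per miR-128-1-5p count on average with SAHA, against 110.1 in aged vehicle and 113.1 in young vehicle libraries. Per miR-128-2-5p count it had 1901.1 ± 230.7 with SAHA (SD, n = 6), 2088.8 ± 454.7 in aged vehicle (SD, n = 5) and 2074.3 ± 469.2 in young vehicle libraries (SD, n = 8). The means per miR-128-2-5p count thus lay within 1 SD of each other, on the small counts of that row. In young vehicle 6, which had the lowest miR-128-3p of its group and the highest miR-128-1-5p, the ratio to miR-128-2-5p was 1938.1, near the group means. Across the 19 libraries, after each group's mean was taken out of log2 CPM, r of miR-128-3p was 0.33 with miR-128-2-5p and -0.40 with miR-128-1-5p. These libraries share their scaling factors, and without young vehicle 6 and aged vehicle 2, the libraries in which miR-128-3p was farthest from its group mean, r was 0.17 and -0.01.

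**Figure D3:**
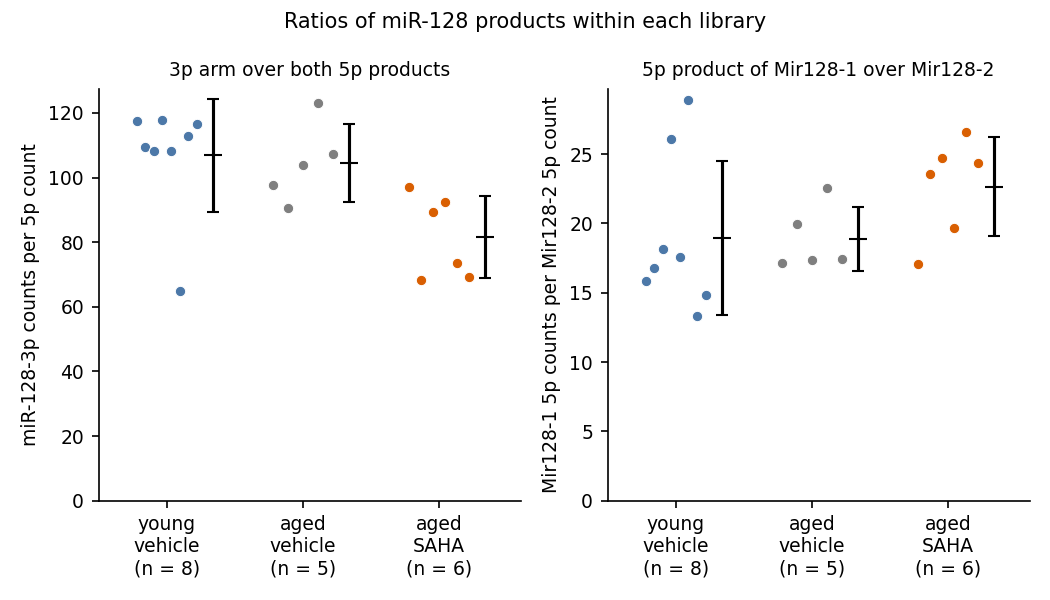
Ratios of miR-128 products within each library, by group, with 1 point per library and the group mean ± SD beside the points: counts of miR-128-3p per count of both 5p products (left) and counts of the 5p product of Mir128-1 per count of that of Mir128-2 (right). Young vehicle 6 stands apart at 64.79 on the left, where aged SAHA libraries reach from 68.16 to 97.09.

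Among other neuron-enriched miRNAs, miR-128-3p was one of the most abundant, second to miR-9-5p, a regulator of neuronal differentiation, and above miR-124-3p, the best known repressor of non-neuronal genes in neurons. miR-9-5p averaged 40179.3 ± 4914.1 CPM in young vehicle (SD, n = 8), 39097.3 ± 2190.1 in aged vehicle (SD, n = 5) and 36330.2 ± 2022.7 in aged SAHA libraries (SD, n = 6). miR-124-3p was at 5543.9 ± 259.7, 5550.6 ± 128.7 and 5514.9 ± 471.0 CPM in the same groups. The next by level were the activity-induced miR-132-3p, miR-153-3p, which represses synaptic vesicle proteins, miR-218-5p and miR-138-5p, an inhibitor of dendritic spine growth, whose group means ranged from 2183.2 to 3615.4 CPM. With SAHA these 6 had log2 fold changes from -0.29 for miR-138-5p to -0.01 for miR-124-3p, and none passed the test in edgeR.

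Over the 28 neuron-enriched rows other than miR-128, all tested, 0 passed with age in edgeR, 5 had an unadjusted p under 0.05, and DESeq2 and limma-voom each called 1 higher and 1 lower. Their median log2 fold change with age was 0.05. With SAHA 2 of 28 fell and 0 rose, where 3.14% of all 509 tested miRNAs fell and 1.18% rose, and the median was -0.07 against -0.01 for all tested. Those 2, named after their values were seen, were miR-9-3p (log2 fold change -0.28 ± 0.07, SE) and miR-153-5p (-0.38 ± 0.11), strands of the miR-9 and miR-153 precursors opposite to the miR-9-5p and miR-153-3p above. Against young vehicle, miR-9-3p and miR-153-5p fell and miR-488-3p rose, where 8.64% of all tested fell and 5.30% rose, with a median of -0.08 against -0.03 for all tested. Since miR-128-3p was selected on the SAHA contrast, its place at -0.441 beside this list is a description only.

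miR-128-3p was also set against this list inside each library, as its log2 CPM minus the mean log2 CPM of the 28 rows. The difference was 7.397 ± 0.119 in young vehicle (SD, n = 8), 7.335 ± 0.104 in aged vehicle (SD, n = 5) and 6.968 ± 0.211 in aged SAHA libraries (SD, n = 6). With age it differed by -0.062 (exact two-sided permutation test, p = 0.36, adjusted 0.937). It was -0.096 without young vehicle 6 (adjusted p = 0.159 by the same exact test), -0.097 without aged vehicle 4, -0.03 without aged vehicle 2, and -0.012 against the summed CPM of the list. The SAHA mean minus the aged vehicle mean was -0.366, without a test. The summed level of the 28 rows was 59243.3 to 71769.9 CPM in young vehicle, 59650.4 to 65505.2 in aged vehicle and 54238.6 to 62409.7 in aged SAHA libraries, and its part in the level of miR-128-3p was not tested. Most of that sum was miR-9-5p, at 38679.0 CPM on average over all libraries. Young vehicle 6 had the highest sum of its group, 71769.9 CPM, but its lowest mean log2 CPM of the 28 rows (-0.125 relative to the mean over all libraries).

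**Figure D4:**
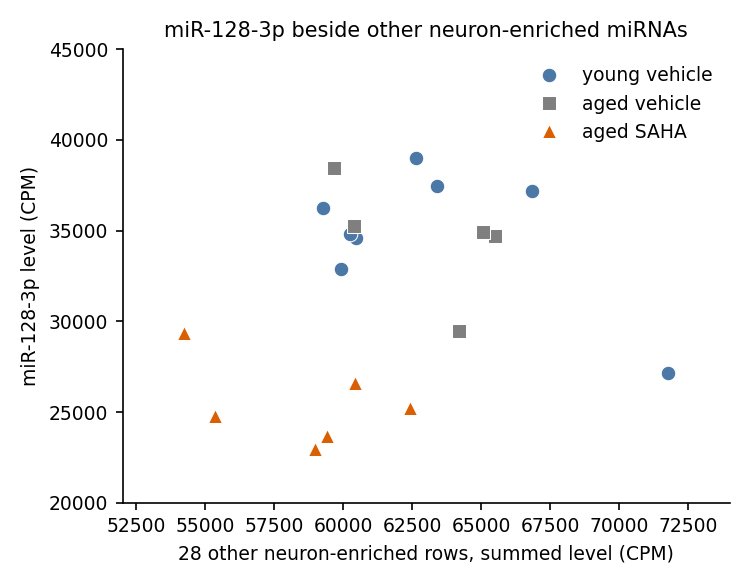
Level of miR-128-3p (vertical axis, CPM) against the summed level of the 28 other neuron-enriched rows (horizontal axis, CPM), with 1 point per library coloured by group and neither axis starting at 0. Summed levels reach from 54238.6 to 62409.7 CPM in aged SAHA libraries and from 59243.3 to 71769.9 CPM in vehicle libraries. Most of the summed level is miR-9-5p, which averaged 38679.0 CPM over all libraries. Young vehicle 6 is at the far right with 71769.9 CPM and the lowest miR-128-3p of its group, 27157.3 CPM. In mean log2 CPM of the 28 rows, where each row counts equally, the same library was the lowest of its group. Aged SAHA 1, at the far left, lies above it with 29375.0 CPM. The part of the summed level in that of miR-128-3p was not tested.

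Markers of other cell types differed in level between libraries, and their calls differed between the comparisons. With SAHA against aged vehicle 0 of 41 tested rows passed in edgeR, 5 had an unadjusted p under 0.05, DESeq2 called 2 higher and limma-voom 1 lower. The median log2 fold change of the 41 rows was 0.11, against -0.01 for all tested, and 14 of 41 were negative. By list, that median was 0.27 for microglia and immune cells, 0.25 for endothelial and mural cells and -0.03 for markers enriched in cultured astrocytes. With age 1 of 41 rose, miR-146a-5p, and 1 fell, miR-150-5p, both miRNAs of immune cells and named after their values were seen, and 12 had an unadjusted p under 0.05. Over all 509 tested miRNAs, 0.196% rose and 1.96% fell with age.

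In SAHA against young vehicle, where miR-128-3p was also lower, 6 of 41 marker rows rose and 1 fell in edgeR, 18 had an unadjusted p under 0.05, DESeq2 called 9 higher and 2 lower, and limma-voom 5 higher and 1 lower. Over all tested miRNAs, 5.30% rose and 8.64% fell in this comparison. The median log2 fold change of the 41 rows was 0.15, against -0.03 for all tested, and 11 of 41 were negative. The rows that rose included miR-155-5p (log2 fold change 1.68), miR-146a-5p (0.95) and miR-142-5p (0.49) of microglia and immune cells and miR-219-2-3p (0.61) of oligodendrocytes, named after their values were seen. Of these, miR-155-5p averaged only 5.8 CPM over all libraries. The row that fell was miR-150-5p (log2 fold change -0.56), also of immune cells and named after its value was seen. Summed markers enriched in cultured astrocytes were at 11221.8 to 12501.5 CPM in young vehicle, 12704.9 to 14152.8 in aged vehicle and 11253.9 to 14065.7 in aged SAHA libraries. For these the aged vehicle libraries lay above all young libraries, and 5 of 8 tested rows had an unadjusted p under 0.05 with age, while edgeR called 0, DESeq2 1 and limma-voom 1. Most of this sum was 1 row, miR-29a-3p, at 10679.0 CPM on average over all libraries. Summed markers of endothelial and mural cells were at 26058.3 to 65725.9 CPM in young vehicle, 26092.7 to 53309.9 in aged vehicle and 26806.6 to 61411.8 in aged SAHA libraries. Most of that sum was miR-143-3p, at 26072.1 CPM on average over all libraries. In the same groups, summed markers of microglia and immune cells were at 3402.7 to 4337.3, 3720.1 to 4643.3 and 3522.5 to 6515.6 CPM. Those of oligodendrocytes were at 3350.6 to 4520.5, 4064.0 to 5643.7 and 3751.5 to 8126.0 CPM. Over all 51 rows of other cell types, 1 of them at 0 in every library, the sum was 51690.0 to 93063.0 CPM in young vehicle, 53074.0 to 82900.8 in aged vehicle and 53506.6 to 93129.5 in aged SAHA libraries. Their part in the level of miR-128-3p was not tested.

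The seed of miR-128-3p overlaps that of miR-27, whose sequence carries the same run of 8 bases 1 position further from its 5′ end. The run is in capitals here, at bases 1 to 8 of miR-128-3p and 2 to 9 of both miR-27 sequences, because some target sites can pair with both families.
miR-128-3p, run marked: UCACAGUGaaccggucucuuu
miR-27a-3p: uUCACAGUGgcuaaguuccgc
miR-27b-3p: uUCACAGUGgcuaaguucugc
miR-27b-3p was next below miR-128-3p in mean level over all libraries. It was at 27317.3 ± 3042.7 CPM in young vehicle (SD, n = 8), 28567.2 ± 1807.6 in aged vehicle (SD, n = 5) and 31555.8 ± 4239.4 in aged SAHA libraries (SD, n = 6). In group means it was thus below miR-128-3p in both vehicle groups and above it with SAHA. miR-27b-3p itself did not pass the test with SAHA in edgeR (log2 fold change 0.14 ± 0.09, adjusted p = 0.409). miR-27a-3p averaged 488.4, 496.5 and 570.0 CPM, with a log2 fold change of 0.20 ± 0.08 with SAHA that did not pass (adjusted p = 0.154 in edgeR). Of the 4 rows of miR-27a and miR-27b, 0 passed with age in edgeR, 0 had an unadjusted p under 0.05, and DESeq2 and limma-voom called 0. With SAHA 0 passed in edgeR, 1 had an unadjusted p under 0.05, and neither other tool called any. Against young vehicle miR-27a-3p rose (log2 fold change 0.22 ± 0.07, adjusted p = 0.0413 in edgeR), where edgeR called 5.30% of all tested miRNAs higher. DESeq2 called 2 of the 4 rows higher in that comparison and limma-voom 0.

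In mean level over all 19 libraries, the other neighbours of miR-128-3p were let-7f-5p and miR-30a-5p above it and miR-143-3p, a miRNA of mural cells, below miR-27b-3p. let-7f-5p averaged 36281.2 CPM in young vehicle, 36787.0 in aged vehicle and 34056.7 in aged SAHA libraries, and miR-30a-5p 33083.7, 33541.6 and 33304.0. In both vehicle groups the mean of miR-30a-5p was below that of miR-128-3p, and the ranges of let-7f-5p, miR-30a-5p and miR-128-3p overlapped. With SAHA the highest miR-128-3p, 29375.0 CPM, was below the lowest let-7f-5p at 31087.1 and the lowest miR-30a-5p at 30436.3. miR-143-3p spread so widely, from 16241.2 to 53767.6 CPM among young vehicle libraries alone, that its place relative to miR-128-3p differed between libraries.

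The miRNAs whose levels followed miR-128-3p most closely from library to library were found by Pearson's r over the 19 libraries, on log2 CPM with each group's mean taken out, so that differences between groups did not enter. Over 508 miRNAs r ranged from -0.66 to 0.75 with a median of -0.019. The highest were miR-485-3p at 0.75, miR-30b-3p at 0.70, miR-544-5p at 0.66, miR-369-3p at 0.64, miR-384-5p at 0.63 and miR-543-5p at 0.61. The lowest were miR-101b-3p and miR-181c-5p, both at -0.66, and let-7g-5p at -0.65. These likenesses rested in large part on young vehicle 6 and aged vehicle 2. Without them r was 0.54 for miR-485-3p, 0.39 for miR-544-5p, 0.36 for miR-30b-3p, 0.27 for miR-543-5p, 0.04 for miR-384-5p and 0.0 for miR-369-3p. The 3 lowest then lay between -0.36 and -0.32. Among the 6 neuron-enriched miRNAs of highest level, r was -0.63 for miR-9-5p and 0.03 to 0.38 for the other 5, and without these libraries it was -0.15 for miR-9-5p and -0.46 to 0.35 for the others. The libraries share their scaling factors and depth, so these values describe likeness in level and nothing further. With SAHA, miR-485-3p also fell (log2 fold change -0.50 ± 0.10, SE, adjusted p = 0.00439 in edgeR), and it fell against young vehicle (-0.37 ± 0.09, adjusted p = 0.00783). The others named as highest passed in neither comparison. Of the 3 lowest, miR-181c-5p rose with SAHA (0.31 ± 0.08, adjusted p = 0.0176). Of all tested miRNAs, 3.14% fell and 1.18% rose with SAHA.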

How the data were processed

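For each library the authors deposited raw counts of reads per mature miRNA name, without normalization. CASAVA 1.8.2, cutadapt, STAR, HTSeq and mm10 are named per the submitters' processing notes. The annotation release, and how reads fitting both miR-128 precursors were counted, are not given in the sources used here. Libraries held 3585489 to 6808281 miRNA counts.

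miRNAs with enough reads (filterByExpr, minimum count 10, minimum total 15, 509 of 1148) were scaled by TMM and fitted in edgeR 4.0.16 (R 4.3.3) with 1 term per group over all 19 libraries. P-values came from the quasi-likelihood F test with Benjamini-Hochberg adjustment over all 509, and a call is an adjusted p under 0.05. The script was tested on simulated data. The ratios of arms and of loci used log2 of raw counts, and miR-128-3p over the neuron-enriched list used log2 of CPM plus 0.5. All 3 had exact permutation tests for age. Alternatives, listed in the closing section, included DESeq2 1.42.0 and limma-voom (limma 3.58.1). The members and lists were chosen with earlier results of these data known. Besides members, miRNAs were named by likeness to miR-128-3p (6 highest, 3 lowest), level (neuron-enriched top 6, 2 neighbours on each side), seed overlap, and the edge of the SAHA call (1 on each side).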

Additional observations from a re-analysis of the deposited data

Results flagged for a closer look

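The log2 ratio of miR-128-3p to both 5p products in young vehicle 6 was 6.018, apart from the other young vehicle libraries, which lay between 6.757 and 6.879. Its gap to the nearest library was 0.858 of the range of the group, above the critical value of 0.526 for 8 libraries. It was the 1 library so found among 18 sets of values examined, and chance gives about 1 in 20 such sets. The same library had the lowest miR-128-3p (27157.3 CPM) and the highest miR-128-1-5p (405.1 CPM) of the young vehicle group.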

How the results depend on the processing

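Over 30 alternatives, leave-one-out included, the log2 fold change of miR-128-3p stayed negative with SAHA (-0.488 to -0.394) and against young (-0.548 to -0.415), as did that of miR-128-2-5p (-0.396 to -0.261 and -0.484 to -0.284). miR-128 was selected on the SAHA contrast and these fits reuse the same libraries, so these signs are a description and lend no support. The age value changed sign under 18 of 30 alternatives for miR-128-1-5p, 4 for miR-128-3p and 2 for miR-128-2-5p, and no member passed with age under any of them. miR-128-1-5p with age was 0.011 with DESeq2 size factors, 0.037 with library size only, 0.011 with no filter, 0.007 with a filter of CPM of 10 in 5 libraries, 0.011 in DESeq2, 0.037 in limma-voom with quality weights, 0.014 with the 3 most abundant miRNAs left out and 0.059 without aged SAHA 1 and young vehicle 6. miR-128-3p with age was 0.018 with library size only. miR-128-1-5p with SAHA was 0.003 without aged SAHA 1 and 3, and against young 0.002 without those and 0.012 without aged SAHA 1 and young vehicle 6.

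Leaving out 1 library at a time moved the age values from -0.031 to 0.059 for miR-128-1-5p, -0.113 to 0.046 for miR-128-2-5p and -0.061 to 0.051 for miR-128-3p, and the age differences in log2 ratio from -0.119 to 0.031 for 3p over 5p, -0.03 to 0.13 for the loci and -0.097 to -0.03 for miR-128-3p over the neuron-enriched list.

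The fit with the replicate number as a block gave 0.003 for miR-128-1-5p, 0.008 for miR-128-2-5p and -0.064 for miR-128-3p with age, and called 8, 15 and 58 miRNAs for age, SAHA and SAHA against young, where the fit without it called 11, 22 and 71. Same-numbered libraries correlated at -0.32 to 0.32 in their deviations, and 2 of 6 pairs at most correlated best with their own number. So few pairs cannot settle whether the numbers pair libraries, and the labels do not say what the numbers mean.

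Calls with age were 20 in DESeq2, 23 in limma-voom, 19 with only the groups compared, 18 without aged SAHA 1 and young vehicle 6, and 24 without aged SAHA 1 and 3. Calls with SAHA were 46 in DESeq2, 46 in limma-voom and 37 without aged SAHA 1 and young vehicle 6. One library at a time left 11 to 33 SAHA calls (13 without aged vehicle 1, 14 without aged vehicle 3, 11 without aged SAHA 6). Higher and lower SAHA calls were 6 and 16, but 23 and 23 in DESeq2, 20 and 26 in limma-voom, 10 and 16 with DESeq2 size factors and 11 and 16 with library size only. Against young they were 27 and 44, but 55 and 48, 39 and 44, 38 and 42, and 51 and 33 under the same settings. With age they were 1 and 10, but 6 and 14 in DESeq2 and 5 and 18 in limma-voom. The cause of these moves was not tested. Depth limits miR-128-2-5p alone among the members.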
